A study of Mus musculus with 10 samples.

Results

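The 10 genes studied here mark inhibitory interneurons of the cerebral cortex or make their transmitter, and were followed in mouse visual cortex after loss of one eye. They are the GABA-synthesising enzymes Gad1 and Gad2, the calcium-binding proteins Pvalb, Calb1 and Calb2, and the peptide genes Sst, Cort, Npy, Vip and Cck. A probe set was taken where its annotation named exactly 1 gene and that gene was on the list, which gave 11 of the 12422 non-control probe sets of the array, 1 per gene and 2 for Pvalb. The mice were wild-type C57Bl6, had one eye removed at postnatal day 14, and gave tissue at postnatal day 18, or 4 days after surgery. The 5 deprived samples were visual cortex on the side opposite the removed eye, which loses most of its visual input because most optic nerve axons cross in the mouse. The 5 non-deprived samples were visual cortex on the same side as the removed eye, and both groups therefore came from operated animals. The labels mention 4 mice and pooled samples without saying how animals were divided over the 10 arrays, so the spread between arrays may be partly technical.

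GABA is made from glutamate by glutamate decarboxylase, of which Gad1 encodes the form found throughout the cell and Gad2 the form enriched at nerve terminals. Cortical interneurons fall into classes that are recognised by what they express: parvalbumin in fast-spiking basket and chandelier cells, somatostatin in cells that contact dendrites, and vasoactive intestinal peptide in cells that mainly contact other interneurons. These classes mature during the weeks around eye opening, and visual input is known to influence that maturation, parvalbumin cells in particular. Several of the genes are not restricted to interneurons: Cck is abundant in excitatory cortical neurons and Calb1 occurs in pyramidal neurons of the upper layers. The arrays read whole tissue, so fewer cells of a type and less RNA per cell cannot be told apart.

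None of the 11 probe sets differed between deprived and non-deprived cortex at an adjusted p of 0.05 in limma, a linear model fitted across all 7453 tested probe sets with Benjamini-Hochberg adjustment. At an unadjusted p under 0.05 there were also 0 of 11, against 4.79% of all tested probe sets. The adjusted criterion was met by 0% of the tested probe sets, so it gives no contrast between these genes and the rest. For 0 of the 11 did the groups fail to overlap, against 0.953% of all tested. The estimates were above 0 for 4 of the 11, against 52% of all tested probe sets, and below 0 for 7, with a median log2 difference of -0.04, beside 0.0066 for all tested. Signals are MAS5 intensities in arbitrary units, and log2 differences are deprived minus non-deprived on log2(signal + 16), which understates the change of dim probe sets.

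**Figure D1:**
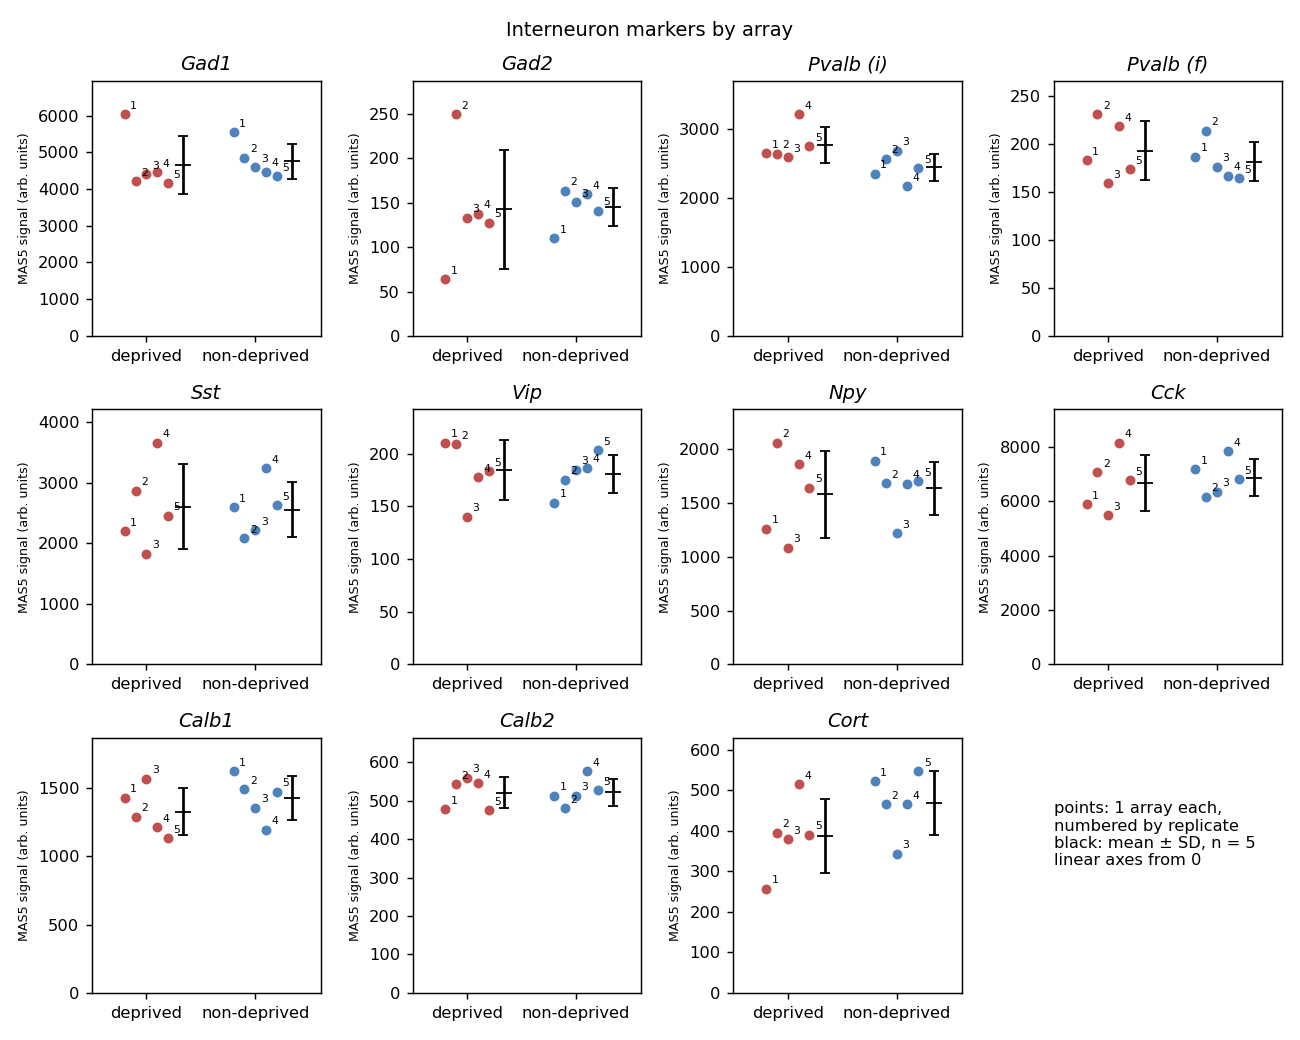
MAS5 signal of the 11 probe sets on each of the 10 arrays, deprived left and non-deprived right, with linear axes from 0; numbers are the replicate numbers of the labels and black bars are the mean ± SD of 5 arrays. The groups overlap in every panel, and array 4 of each group is highest for Sst and Cck.

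Gad1, the main enzyme of cortical GABA synthesis, had signals of 6034, 4214, 4402, 4463 and 4152 in deprived cortex, against 5544, 4857, 4586, 4472 and 4343 in non-deprived cortex (replicates 1 to 5). Replicate 1 was highest in each group, and the other arrays lay between 4152 and 4463 in deprived and between 4343 and 4857 in non-deprived cortex. The means were 4653 ± 783 in deprived and 4760 ± 477 in non-deprived cortex (SD, n = 5 each), a log2 difference of -0.04 ± 0.11 (SE). The 95% interval reached from 0.829-fold to 1.14-fold, so a fall by more than that lower bound lay outside it. Without non-deprived replicate 1 the estimate was 0.014. Gad2, the terminal-enriched enzyme, was read dimly, with signals of 63.9, 250, 133, 138 and 128 in deprived and 110, 163, 151, 160 and 141 in non-deprived cortex. The lowest and the highest array were both deprived, replicates 1 and 2. Its log2 difference of -0.11 ± 0.25 (SE) had an interval from 0.634-fold to 1.35-fold and turned to 0.11 without deprived replicate 1. The signal of Gad2 sat close to the filter on dim probe sets, a mean intensity of about 115, and its spread between arrays was larger than that of 94.7% of tested probe sets. The Gad2 probe set therefore bounds a change far more loosely than that of Gad1.

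Pvalb, the calcium buffer of fast-spiking cells, had the smallest p of the 11. On its brighter probe set, of the incomplete type, signals were 2654, 2643, 2592, 3217 and 2750 in deprived cortex, against 2353, 2575, 2685, 2175 and 2436 in non-deprived cortex. All 5 deprived arrays lay above the non-deprived median, and 4 of 5 non-deprived arrays lay below every deprived array. The exception was non-deprived replicate 3, which exceeded deprived replicates 1, 2 and 3. The means of 2771 ± 256 in deprived and 2445 ± 197 in non-deprived cortex (SD, n = 5 each) gave a log2 difference of 0.18 ± 0.08 (SE; adjusted p = 0.992 in limma). The limma interval ran from 0.998-fold to 1.28-fold. Taken alone, with no adjustment for the other probe sets, Pvalb had an exact two-sided permutation p of 0.0476 over the 252 assignments of arrays. The unadjusted p in limma was 0.0536, on the other side of 0.05. The smallest exact p over these assignments is 0.00794. Both tests take the arrays as unpaired, which the labels do not settle. With the replicate number as a block, the unadjusted p in limma was 0.0744. The size of the estimate depended on single arrays: it was 0.12 without deprived replicate 4, the array with the highest signal, and 0.21 without non-deprived replicate 3. The dimmer Pvalb probe set, of the type shared within a sequence family, was designed from the same transcript record. It had signals of 183, 231, 160, 219 and 174 in deprived and 187, 214, 177, 168 and 165 in non-deprived cortex, which overlapped throughout, and a log2 difference of 0.07 ± 0.14 (SE). Across the 10 arrays the Pvalb probe sets correlated at a Pearson r of 0.48 (permutation p = 0.165) and a Spearman rho of 0.309 (permutation p = 0.388). That r dropped to 0.086 without the 2 arrays farthest from the median, so it rested on those arrays.

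Of the other calcium-binding proteins, Calb2, or calretinin, had the tightest values of all 11 probe sets. Its signals were 478, 543, 559, 545 and 476 in deprived and 513, 480, 512, 577 and 528 in non-deprived cortex. The means differed by less than the spread, at 520 ± 40.2 and 522 ± 35.2 (SD, n = 5 each), and the 95% interval of the log2 difference, -0.20 to 0.19, was among the narrowest here. Calb1, calbindin, had signals of 1428, 1287, 1567, 1211 and 1131 in deprived cortex, against 1620, 1489, 1354, 1193 and 1470 in non-deprived cortex. Of these, 1 deprived array lay below every non-deprived array and 1 non-deprived array above every deprived one, and the ranges otherwise overlapped. Its log2 difference was -0.11 ± 0.11 (SE; adjusted p = 0.992 in limma), with an interval from 0.792-fold to 1.09-fold.

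**Figure D2:**
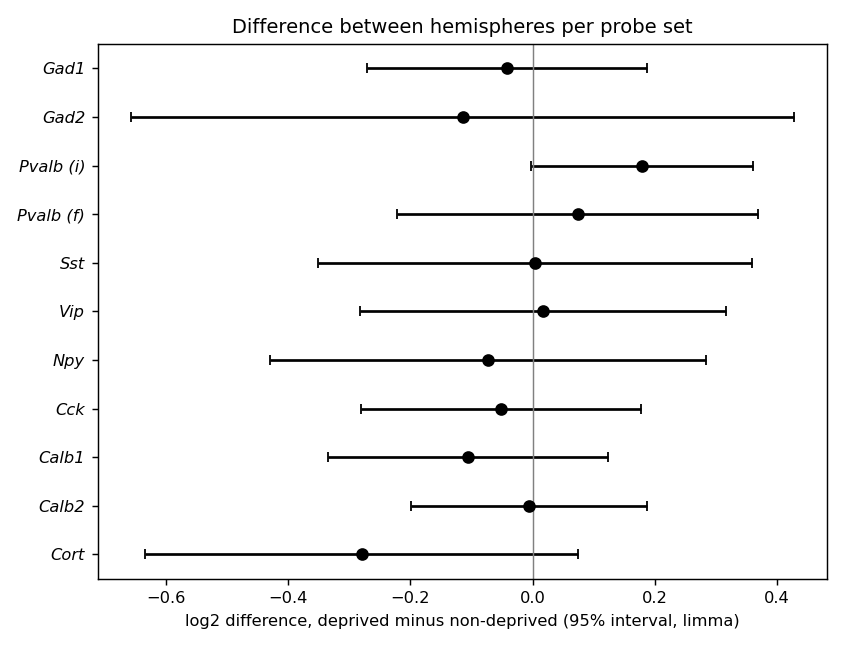
Log2 difference, deprived minus non-deprived, of each of the 11 probe sets (points) with the 95% interval of the limma fit (bars). Every interval spans 0; Pvalb on its incomplete probe set (i) and Cort have the estimates farthest from it, at 0.18 and -0.28.

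Among the peptides, cortistatin had the largest estimate. Cort encodes a relative of somatostatin that binds the same receptors, and its signals were 257, 396, 380, 515 and 391 in deprived cortex, against 523, 466, 344, 466 and 547 in non-deprived cortex. In deprived cortex 4 of the 5 arrays lay below the non-deprived median of 466, while deprived replicate 4 and non-deprived replicate 3 crossed over. The means were 388 ± 91.3 in deprived and 469 ± 78.6 in non-deprived cortex (SD, n = 5 each), a log2 difference of -0.28 ± 0.17 (SE; exact two-sided permutation p = 0.175, adjusted p = 0.992 in limma). The estimate was -0.15 without deprived replicate 1, the lowest array, and -0.39 without deprived replicate 4, and its interval ran from 0.644-fold to 1.05-fold.

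Sst, the peptide gene of the dendrite-contacting class, had signals of 2196, 2869, 1827, 3658 and 2455 in deprived cortex, against 2592, 2079, 2219, 3241 and 2630 in non-deprived cortex. The highest and the lowest array were both deprived, and the non-deprived values lay between them. The means were 2601 ± 702 and 2552 ± 452 (SD, n = 5 each), with a log2 difference of 0.0040 ± 0.17 (SE) whose sign changed with median scaling and with single arrays. Its interval ran from 0.784-fold to 1.28-fold. Npy, neuropeptide Y, a peptide that many somatostatin cells also make, had signals of 1261, 2058, 1083, 1857 and 1641 in deprived and 1889, 1683, 1217, 1679 and 1702 in non-deprived cortex. Replicate 3 was the lowest array in each group. The log2 difference of Npy was -0.07 ± 0.17 (SE).

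Cck, the cholecystokinin gene, was read at 5878, 7059, 5479, 8144 and 6768 in deprived cortex and at 7174, 6157, 6352, 7843 and 6808 in non-deprived cortex. Replicate 4 was the highest array in each group, as it was for Sst. The log2 difference of Cck was -0.05 ± 0.11 (SE), with an interval from 0.823-fold to 1.13-fold. Vip, vasoactive intestinal peptide, was read dimly, at 210, 209, 140, 178 and 184 in deprived and 153, 175, 185, 187 and 203 in non-deprived cortex. Vip had means of 184 ± 28.6 and 181 ± 18.2 (SD, n = 5 each) and a log2 difference of 0.018 ± 0.14 (SE) that changed sign under quantile normalization and median scaling.

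The transcription of Sst is a textbook case of control by cyclic AMP through the CRE, a short element bound by the activity-dependent factor CREB. RefSeq promoter sequences (GRCm38.p6) were matched for 8 of the 10 genes by symbol. The letters TGACGTCA, the full CRE, and its core TGACG, searched on both strands so that CGTCA counts too, were looked for in the 250 bases before each annotated start. The full element contains the core on both strands. Of the member genes only Sst held the full element, which 1.55% of all 32851 RefSeq windows of that length held. The core was present in 5 genes (Sst, Cck, Vip, Cort and Gad2), and 17.8% of all windows held it. The windows of Sst and Cck are shown because their correlation across the arrays passed over the 45 pairs, as described further on, and that of Npy, whose correlations with both did not pass, for comparison; capitals mark the core matches, and all are written 5′ to 3′ on the strand of the gene. The Sst window is chr16:23890845-23891094 (minus strand), the Cck window chr9:121495695-121495944 (minus strand) and the Npy window chr6:49822460-49822709 (plus strand).
Sst: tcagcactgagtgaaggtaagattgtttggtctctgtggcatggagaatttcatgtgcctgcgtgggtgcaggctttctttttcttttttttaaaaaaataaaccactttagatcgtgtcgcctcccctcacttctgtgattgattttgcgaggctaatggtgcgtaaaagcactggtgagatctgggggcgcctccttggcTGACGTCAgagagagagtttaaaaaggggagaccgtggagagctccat
Cck: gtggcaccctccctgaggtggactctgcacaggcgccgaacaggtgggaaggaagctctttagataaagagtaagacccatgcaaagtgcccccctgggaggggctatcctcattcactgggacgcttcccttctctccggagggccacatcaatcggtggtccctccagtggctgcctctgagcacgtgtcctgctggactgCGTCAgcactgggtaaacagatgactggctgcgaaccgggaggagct
Npy: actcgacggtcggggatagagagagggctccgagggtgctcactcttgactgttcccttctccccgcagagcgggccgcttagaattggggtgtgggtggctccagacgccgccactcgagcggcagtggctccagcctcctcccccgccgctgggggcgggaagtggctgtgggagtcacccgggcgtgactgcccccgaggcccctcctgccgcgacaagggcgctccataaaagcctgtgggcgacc
In the Sst window the element starts 48 bases before the annotated start, and in the Cck window the core starts 47 bases before it. The Npy window holds no match to these letters. Such matches describe the sequence and do not show binding. The other genes with the core, Vip, Gad2 and Cort, had an r with Sst of 0.34, 0.28 and 0.50 over the arrays. Their r with Cck was 0.22, 0.33 and 0.61. Npy, with no match, had an r of 0.725 with Sst and 0.774 with Cck. Whether the matches bear on the correlations across the arrays was not tested.

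Other genes of GABA metabolism and of interneurons, from lists that were also chosen with earlier results of these data known, gave no adjusted call. Each gene was represented by its brightest tested probe set. Of 7 tested genes of GABA metabolism and transport, 0 had an unadjusted p under 0.05. Slc32a1, the vesicular GABA transporter, had signals of 4498 ± 1001 in deprived and 4063 ± 534 in non-deprived cortex (SD, n = 5 each; log2 0.13 ± 0.14 SE). Slc12a5, the chloride exporter that sets the polarity of GABA responses, had 271 ± 60.9 and 239 ± 40.4 (SD, n = 5 each). The glutamate transporter Slc1a1 had a log2 difference of -0.17 ± 0.11 (SE) and glutamine synthetase, Glul, one of -0.16 ± 0.29. The median over this list was a log2 difference of 0.023.

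Of 9 tested transcription factors of the interneuron lineage, 0 had an unadjusted p under 0.05 and the median log2 difference was -0.03. Satb1, a chromatin organiser needed for the maturation of somatostatin cells, had 2889 ± 542 in deprived and 3201 ± 296 in non-deprived cortex (SD, n = 5 each; log2 -0.17 ± 0.13 SE). The homeobox genes Dlx2 and Dlx5 had log2 differences of -0.19 ± 0.13 and 0.18 ± 0.15 (SE), and the nuclear receptor Nr2f1 one of -0.05 ± 0.09.

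Among 19 other tested interneuron markers, 4 had an unadjusted p under 0.05, all with higher estimates in deprived cortex, against 4.79% of all tested probe sets in either direction; none had an adjusted p under 0.05. Npy2r, a presynaptic receptor of neuropeptide Y, had signals of 490 to 603 in deprived and 373 to 457 in non-deprived cortex, which did not overlap, on a family-type probe set (log2 0.31 ± 0.09 SE; unadjusted p = 0.00559 and adjusted p = 0.992 in limma). A second Npy2r probe set, below the filter, had means of 121 and 116. Syt2, a calcium sensor of vesicle release in parvalbumin terminals, had 948 ± 110 in deprived and 771 ± 95.3 in non-deprived cortex (SD, n = 5 each; log2 0.29 ± 0.10 SE). Kcnc1, a potassium channel of fast-spiking cells, was dim, at 157 ± 16.9 and 112 ± 23.8 (SD, n = 5 each; log2 0.45 ± 0.17 SE). Kcnab1, a potassium channel subunit named after its values were seen, had a log2 difference of 0.28 ± 0.12 (SE). Second probe sets below the filter had deprived and non-deprived means of 98.1 and 109 for Kcnab1, in the other direction. Those for Syt2 were 109 and 80.2, in the same direction. For Syt2, Kcnc1 and Kcnab1 the groups overlapped. Of the 19 estimates 10 were above 0 and 9 below, so the list as a whole did not lean to deprived cortex. The list median was 0.0083, near that of all tested probe sets. Its brightest members Sparcl1 and Nrsn1, both expressed well beyond interneurons, had log2 differences of -0.02 ± 0.07 and -0.13 ± 0.07 (SE).

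Of 6 tested peptide receptor genes, Npy2r was the 1 with an unadjusted p under 0.05. Npy1r, the main postsynaptic receptor of neuropeptide Y, had 240 ± 46.8 in deprived and 299 ± 90.7 in non-deprived cortex (SD, n = 5 each). A second Npy1r probe set, below the filter, had means of 84.2 and 66.3, in the other direction. The somatostatin receptor Sstr4 had a log2 difference of 0.12 ± 0.10 (SE) and the cholecystokinin receptor Cckbr one of -0.09 ± 0.14.

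Activity-regulated genes had lower estimates in deprived cortex on the same arrays. The list of 14 tested activity-regulated genes follows what was already known of these samples. Of these genes, 13 had an unadjusted p under 0.05, all lower in deprived cortex, against 4.79% of all tested probe sets in either direction. None had an adjusted p under 0.05 in the main fit. The median log2 difference of the list was -0.52. Its brightest members Egr1 and Dusp1 had 5307 ± 388 and 2592 ± 477 in deprived cortex, against 7419 ± 1066 and 3829 ± 518 in non-deprived cortex (SD, n = 5 each). Whether the response of an interneuron marker differs from that of these genes was not tested.

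The labelled tissue was checked against defining markers. The cortical genes Tbr1 and Nrgn had means of 6307 and 5750 in deprived and 6334 and 5610 in non-deprived cortex. Summed signals of 11 excitatory neuron genes ranged from 22865 to 28458 in deprived and from 23224 to 24964 in non-deprived arrays. Of 10 pan-neuronal genes, 2 had an unadjusted p under 0.05, both lower in deprived cortex. Tubb3 was among them, on its brighter probe set (log2 -0.25 ± 0.09 SE). A second tested Tubb3 probe set did not share the fall, with means of 2763 in deprived and 2720 in non-deprived cortex (log2 0.026 ± 0.07 SE). Snap25 had means of 13053 and 12765. The 9 markers of thalamus, striatum, hippocampus or choroid plexus on the array summed to between 4739 and 5839 in deprived arrays. In non-deprived arrays this sum lay between 4430 and 5407. Of the 7 tested genes of this list, 6 had estimates above 0 and 1 below (list median log2 0.081). Its brightest genes, Pde1b and Wfs1, had means of 1592 and 1169 in deprived and 1505 and 1021 in non-deprived cortex. Ttr, which defines choroid plexus, was below the filter, with means of 65.8 and 66.8. Other genes of this list were above it, among them Tcf7l2 with 580 and 531, Lef1 with 685 and 629, and Zic1 with 375 and 335. Drd2, with 121 and 125, was the 1 with an estimate below 0. Of the 8 tested oligodendrocyte genes 7 had estimates above 0 (list median log2 0.15), among them Mobp with 5694 and 5144, and Mbp, with 11127 and 11612, was the one below 0; the list's summed signals overlapped, from 22997 to 30197 in deprived and from 20702 to 29555 in non-deprived arrays. Cst3, of astrocytes and microglia, had 14308 and 13041, and Csf1r, of microglia, 1484 and 1376. An unadjusted p under 0.05 was reached by 0 of 11 tested excitatory neuron genes, 1 of 8 of astrocytes (higher in deprived cortex), 0 of 8 of oligodendrocytes, 0 of 12 of microglia and vessels, and 0 of 7 of the tissues outside cortex. These counts take the brightest tested probe set of each gene. A dimmer Mbp probe set was lower in deprived cortex (log2 -0.31 ± 0.13 SE; unadjusted p = 0.0275 in limma). A dimmer Mobp probe set was higher (log2 0.40 ± 0.17 SE; unadjusted p = 0.0315 in limma). The part of tissue composition in the values of the interneuron genes was not tested.

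Apart from the difference between hemispheres, Sst and Cck varied together across the 10 arrays. Their log2 signals correlated at a Pearson r of 0.969 (permutation p = 4.00e-05) and a Spearman rho of 0.952 (permutation p = 0.00011). Of the 45 pairs among the 10 genes it was the 1 pair past a Benjamini-Hochberg adjusted p of 0.05, at 0.0018 for r and 0.00495 for rho. Without the 2 arrays farthest from the Sst median, deprived replicates 3 and 4, r was 0.935, and on deviations from the group means it was 0.981. Among 6741 tested probe sets of other genes, Cck was the most like Sst, and Sst the most like Cck. The next most similar to Sst were Mrpl4, Sdhc, Timm17a and Ndufb6. For Cck they were Mrpl4, Timm17a, Cmc2 and Psmb10. None of these is on the interneuron lists used here, so the pattern was not particular to interneuron genes. An r above 0.8 was reached with Cck by 85 probe sets and with Sst by 101. The arrays may share animals, so the 10 points need not be independent.

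**Figure D3:**
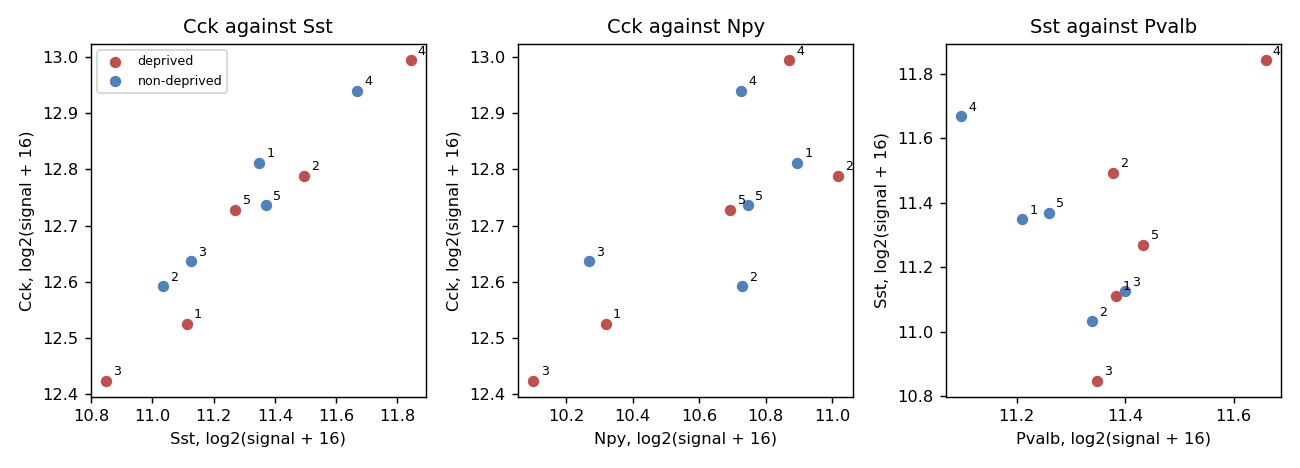
Log2(signal + 16) of Cck against Sst, Cck against Npy, and Sst against Pvalb (incomplete probe set) on the 10 arrays; numbers are replicate numbers. Cck and Sst fall on a line (Pearson r 0.969) with replicate 4 of each group at its upper end, while Sst and Pvalb show no such order (r 0.13).

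Npy had lower coefficients with both. It correlated with Cck at an r of 0.774 (permutation p = 0.0092, adjusted 0.138) and a rho of 0.721 (permutation p = 0.0243, adjusted 0.303), and at an r of 0.638 without the 2 arrays farthest from the Npy median. With Sst, Npy had an r of 0.725 (permutation p = 0.0187, adjusted 0.21) and a rho of 0.673 (permutation p = 0.0389, adjusted 0.35), and an r of 0.579 without the 2 farthest arrays. Neither pair passed over the 45 pairs. Deprived replicate 3 was the lowest of all 10 arrays for each of these 3 peptide genes, and deprived replicate 4 was the highest for Sst and Cck and the third highest for Npy. As a description, the r of Pvalb with the other 9 genes lay between -0.31 and 0.13.

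Gad1 and Gad2 showed the opposite sign, with an r of -0.756 (permutation p = 0.00837, adjusted 0.138). It rested on replicate 1 of each group, where Gad1 was highest and Gad2 lowest: without these 2 arrays r was -0.075, and the Spearman rho over all arrays was -0.285 (permutation p = 0.428, adjusted 0.878).

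**Figure D4:**
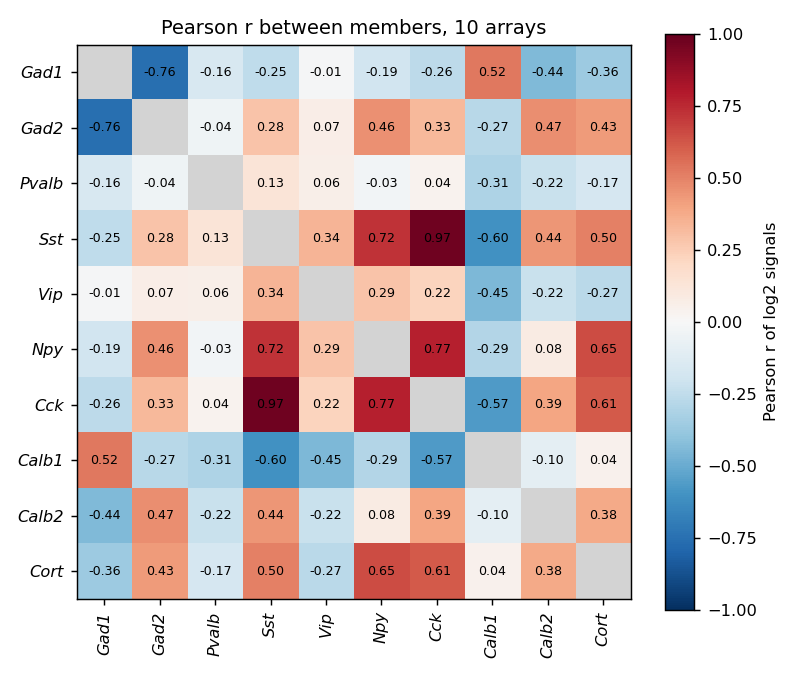
Pearson r of log2 signals over the 10 arrays for the 45 pairs of the 10 genes (the brighter probe set of Pvalb), coloured from -1 to 1. The darkest cell is Sst with Cck at 0.969, the only pair that passed over the 45 pairs. Gad1 and Calb1 have negative coefficients with both Sst and Cck, and the other genes positive ones.

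Measures of the arrays themselves were set beside this relation. In 28 relations of Sst or Cck with 14 array measures, 0 passed a Benjamini-Hochberg adjusted p of 0.05, and the smallest was 0.174. The coefficients with the smallest p were those of Sst with the summed lineage transcription factors (r = -0.737, permutation p = 0.0151; rho = -0.77, p = 0.0133; r = -0.792 without the 2 farthest arrays) and with the summed markers of thalamus, striatum, hippocampus or choroid plexus (r = 0.724, permutation p = 0.0179; rho = 0.697, p = 0.0307; r = 0.282 without them). Sst and the summed oligodendrocyte markers gave an r of 0.721 (permutation p = 0.0187) and a rho of 0.527 (permutation p = 0.125), with an r of 0.144 without the 2 farthest arrays. The 3' over 5' signal ratio of beta-actin, which rises with RNA degradation, averaged 1.58 in each group, with an SD of 0.121 over 5 deprived and 0.181 over 5 non-deprived arrays. Its r with Sst was -0.471 (permutation p = 0.17; rho = -0.503, p = 0.144; r = -0.206 without the 2 farthest arrays). The part of dissection or RNA quality in the shared variation of Sst and Cck was not tested beyond these values.

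For the remaining genes, the tested probe set of another gene with the most similar pattern over the 10 arrays is given as a description, the highest of 6740 or 6741 coefficients each. It was Pygm for Gad1 (r = 0.925), S100a13 for Gad2 (0.982), Rnf26 for Pvalb (0.901), Litaf for Vip (0.942) and Gstp1 for Npy (0.947). It was Ice1 for Calb1 (0.887), Itgb5 for Calb2 (0.936) and Nme1 for Cort (0.933). None of these is a marker of interneurons on the lists used here. An r above 0.8 was reached with Sst by 101 probe sets, or 1.5% of those compared, with Npy by 119 and with Pvalb by 6.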

How the data were processed

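The authors deposited linear signal intensities, with 1 value for each probe set on each array. The submitters' processing notes name MAS5 as the tool; its version, its scaling target and a genome build were not stated there. Total RNA was extracted with Trizol and labelled as biotinylated cRNA, per the labels' protocols. Array medians lay between 191 and 209. No detection calls were used, and array data carry no read depth; the number of arrays limits the precision. A global scaling makes every change relative to the array's average.

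Control probe sets (66 of 12488) were left out. The platform annotation, updated through Entrez IDs, gave 10833 probe sets 1 symbol, 396 several and 1193 none. Intensities were converted to log2(value + 16), and probe sets with a mean below the 40th percentile were left out, leaving 7453, among them all 11 members. Deprived was compared with non-deprived, 5 arrays each, in limma 3.58.1 (R 4.3.3; lmFit, eBayes with an intensity trend), with no covariate. On simulated arrays of the same means and spreads (7453 probe sets, 10 runs), this fit recovered 62.1% of simulated 1.5-fold changes and 85.6% of simulated 2-fold changes. Of its calls 4.72% were false. Each run held 200 planted changes and independently drawn arrays, whereas in the deposited arrays 0 of 7453 probe sets passed. The recovered shares therefore hold for the simulated setting and do not tell what the deposited arrays could detect. Exact tests of single probe sets ran over all 252 assignments of the arrays, taken as unpaired. Correlations over arrays used 100000 permutations, two-sided.

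Every member is named; from the 4 lists of GABA, lineage, marker and receptor genes the 3 smallest p and the 2 brightest, and from the other lists the 2 brightest, of which those of most use to the check of the tissue are printed. Ttr, Tcf7l2, Lef1, Zic1, Drd2, Junb and Kcnab1 were named outside this rule. Members and lists were chosen with earlier results of these data known. Alternatives were 2 pseudocounts, 2 filters, 2 normalizations, the replicate number as a block and leaving out each array. Relations with array measures and the settings for the pair correlations were added after seeing the data.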

Additional observations from a re-analysis of the deposited data

Results flagged for a closer look

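In 22 groups of 5 arrays (11 probe sets in each of the groups), 2 had an array far from the other 4 by Dixon's criterion, which chance meets in about 1 of 20 groups. The first was Gad1 in deprived replicate 1, at a signal of 6034 against 4463 in the next highest deprived array; non-deprived replicate 1 was also the highest of its group, at 5544. The second was Pvalb on its incomplete probe set in deprived replicate 4, at 3217 against 2750 in the next highest deprived array. Without that array the log2 difference of Pvalb was 0.12 ± 0.08 (SE), against 0.18 ± 0.08 with it, and on the dimmer Pvalb probe set deprived replicate 2, at 231, was higher than replicate 4, at 219.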

How the results depend on the processing

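The count of these probe sets past an adjusted p of 0.05 was 0 under all 17 alternatives. At an unadjusted p under 0.05 the count was 1 with no filter on dim probe sets (Pvalb) and 1 with quantile normalization (Pvalb), and between 0 and 2 with single arrays left out: Pvalb without deprived replicate 3, Cort without deprived replicate 4, and both without non-deprived replicate 3. Over all tested probe sets the adjusted count was 2 with a pseudocount of 64, 2 after filtering at the 60th percentile, 6 with the replicate number as a block and 0 to 5 with single arrays left out (5 without non-deprived replicate 1, 1 without deprived replicate 4). Of the activity-regulated list, with each gene taken by its brightest tested probe set, it was 1, 1, 4 and 0 to 4. Junb, a gene of that list, was also called under the pseudocount of 64, the 60th percentile filter and the block. The same held without non-deprived replicate 1 and without deprived replicate 4. Its calls came from a probe set that was not its brightest, so the list counts leave them out. The cause of these changes in count was not tested. The other lists stayed at 0. Estimates of Pvalb (both probe sets), Calb1 and Cort kept their sign throughout. The log2 difference of Sst was -0.030 under median scaling, and that of Vip was -0.012 under quantile normalization and -0.014 under median scaling. With single arrays left out, Sst ranged from -0.13 to 0.12, Vip from -0.035 to 0.10, Gad1 from -0.14 to 0.014, Gad2 from -0.33 to 0.11, Npy from -0.18 to 0.052, Cck from -0.13 to 0.016 and Calb2 from -0.034 to 0.030. With the 60th percentile filter Gad2, Vip and the dimmer Pvalb probe set were not tested. Same-numbered arrays of the groups correlated in their deviations from the group means at 0.0222 to 0.227 (5 numbers), below 0.1 for number 5, and 4 of 5 numbers were closest to their own partner; with the block, Pvalb kept 0.18 ± 0.09 (SE) and Gad1 -0.04 ± 0.07. The r of Sst and Cck lay between 0.94 and 0.981 over 15 added settings, and the count of passing pairs stayed at 1.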
